A study of Mus musculus with 18 samples.

Results

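Expression in 2 Tcf3 knockout (ko) clones of OSK induced pluripotent stem cells (iPSC) was compared with expression in 1 Tcf3 wild-type (wt) OSK clone, across autosomal genes. Both ko arrays and the wt array were chosen by their titles, as 3 of the 18 mouse arrays of the series. The genes were the 17238 of 17903 in the table that lie on an autosome. Of these, 12241 were above the floor of the values on at least 1 of the 3 arrays and could be tested, and 4997 were at the floor on all 3. OSK is the label for the reprogramming factors, the usual letters for Oct4, Sox2 and Klf4. All 3 clones were reprogrammed with these factors. The ko clones are described as 2 different cell lines, and the wt group is 1 clone with 1 array, so any trait of that clone is part of every difference below. The labels used here do not say how the Tcf3 gene was deleted, and name no strain, source cell or passage. Other arrays are used for side-by-side values: 2 Tcf3 ko OCK iPSC clones (Oct4, c-Myc and Klf4), a partially reprogrammed Tcf3 wt OCK clone 2 days after siTcf3-A or siTcf3-B (1 array each) or siCtrl (1 array), and 5 ko and 5 wt OCK cultures.

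Tcf3 is an older name of Tcf7l1, a DNA-binding protein of the Tcf/Lef family. In mouse embryonic stem cells it sits at many genes of the pluripotency network and at Wnt target genes, mostly as a repressor working with Tle co-repressors. When Wnt signalling stabilises beta-catenin, this repression is relieved, and other members of the family (Tcf7, Lef1) can activate the same targets. Loss of Tcf7l1 is known to make mouse embryonic stem cells harder to differentiate. The comparison asks how far expression differs in fully reprogrammed cells that lack this repressor.

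Values are log2 signal after RMA, a method that corrects background, normalizes across arrays and combines the probes of a probe set, and 1 unit is a doubling. No value lies below 5.64, the log2 of 50, so a gene at 5.64 has only an upper limit, and a fold against it is given as "at least". Each gene is read from its brightest probe set. A gene passed when its limma p, adjusted by Benjamini-Hochberg over all tested genes, was under 0.05. The fit borrows the spread of array pairs in 8 arrays, since the lone wt array has none of its own, and a value after ± is the standard error of a log2 difference. No label says that the clones were grown as separate cultures. P-values thus measure the scatter among these arrays, and that scatter may be technical. The number of arrays limits every value.

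The 3 arrays were alike in technical terms, with 46.4% and 46.2% of probe sets at the floor in the ko clones and 46.5% in wt. The markers of iPSC were high on all of them. Pou5f1, the gene of Oct4, had 12.18 and 11.99 in the ko clones and 11.93 in wt, and Nanog had 12.56 and 12.56 in the ko clones and 12.55 in wt. The macrophage markers Ptprc, Adgre1, C1qa, C1qb and Lyz2 were at the floor on all 3 arrays. Other members of the list of macrophage and blood genes were not. Of its 12 autosomal genes, 5 were above the floor in ko clone 1, 4 in ko clone 2 and 4 in wt. The ko clones were close to each other. Over the 12241 genes the SD of their difference was 0.14 and 3 genes differed by 2-fold or more, while the SD against wt was 0.32 for ko clone 1 and 0.33 for clone 2, with 204 and 214 genes 2-fold or more apart. In the OCK ko pair the same SD was 0.39, with 339 such genes.

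Among the autosomes, the wt array stood apart on 1 chromosome. Over genes above the floor on all 18 arrays (372 on chromosome 12), and relative to each gene's own median and to the median of the autosomes on an array, the level of chromosome 12 was 0.25 on the OSK wt array and between -0.03 and 0.03 on the other 17, including both ko clones. The 441 tested genes of chromosome 12 had a median ko minus wt difference of -0.21, and 328 of them (74.4%) were lower in both ko clones than in wt. For the 11800 tested genes of the other autosomes the median was 0.02, and 4321 (36.6%) were lower in both. The shift ran along the chromosome: in 6 consecutive stretches of 73 or 74 genes the median lay between -0.27 and -0.18 in ko clone 1 and between -0.30 and -0.16 in clone 2. What part it has in the differences of single genes on chromosome 12 was not tested, and such genes are named as lying there. The X chromosome lies outside the comparison. Its 409 tested genes had a median ko minus wt difference of -0.205.

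**Figure D1:**
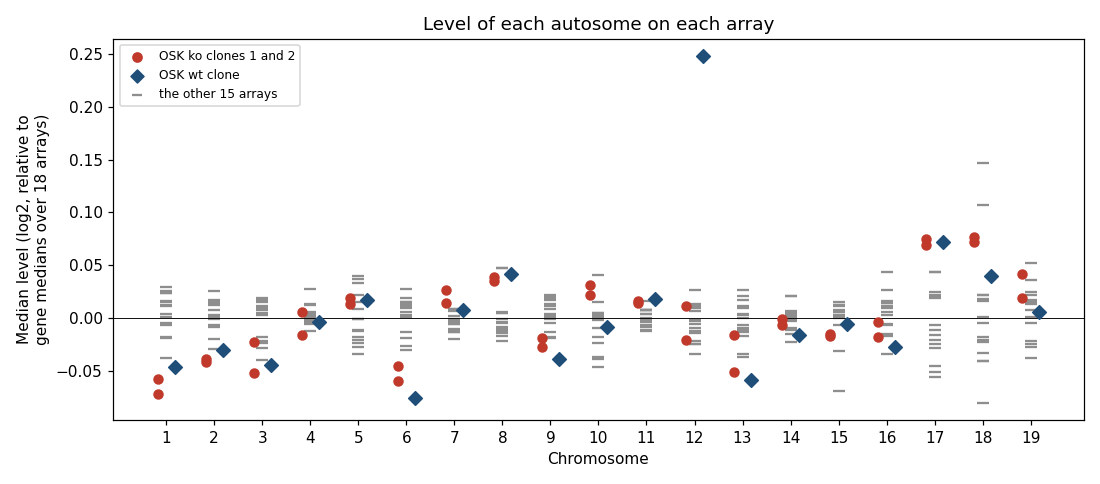
Median level of each autosome (x axis) on each array, over genes above the floor on all 18 arrays (y axis, log2, relative to each gene's median over the arrays and to the autosomal median of the array). Red circles are the OSK ko clones, blue diamonds the OSK wt clone and grey dashes the other 15 arrays; the wt array at chromosome 12 lies at 0.25, and the ko clones lie with the others there.

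Tcf7l1 itself was lower in both ko clones, but its transcript signal was not lost. It had 9.49 and 9.37 in the ko clones and 10.68 in wt. This is a difference of -1.25 ± 0.11, or 2.38-fold lower (limma adjusted p = 0.0215). A second probe set of the gene gave 8.82 and 8.67 in the ko clones and 10.07 in wt. The position of either probe set within the gene, or of the deleted part, is not stated in the labels, so a remaining signal does not check the knockout. The call was lost when either ko clone was left out (adjusted p = 0.154 without clone 1 and 0.18 without clone 2).

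Among the relatives and partners of Tcf7l1, no other gene passed. The list of Tcf/Lef proteins, beta-catenin and their regulators held 19 tested genes, of which 0 rose and 1, Tcf7l1, fell. Of all tested autosomal genes 0.613% passed. The list had a median difference of -0.01, beside 0.02 over all tested autosomal genes. Lef1, which mostly activates Wnt targets, had 7.46 and 7.62 in the ko clones and 6.78 in wt (0.75 ± 0.17, limma adjusted p = 0.138). Tcf7l2, the member best known from the gut, had 6.74 and 6.94 in the ko clones and 7.67 in wt (-0.83 ± 0.30, adjusted p = 0.329). Both ko clones thus lay on the same side of wt for each of these genes, without passing. Ctnnb1, the gene of beta-catenin, had 13.34 and 13.39 in the ko clones and 13.41 in wt. The Tle family genes Tle1 to Tle5 differed from wt by -0.41 (Tle3) to 0.29 (Tle5).

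Over all autosomal genes, 75 of 12241 passed (0.613%), 38 higher in ko (0.31%) and 37 lower (0.302%). For comparison, 1479 genes (12.1%) had an unadjusted p under 0.05. In all 75, both ko clones lay on the same side of wt, which passing favours because the ko pair is part of the fitted spread. The differences ran from 0.85 to 3.93 in size among the rises and down to -3.07 among the falls, and 68 of the 75 genes differed by 2-fold or more. Adjusted p lay between 0.00989 and 0.0495. The last genes inside it were Ints6 (0.0476), Tmem30b (0.0483) and Ephx2 (0.0495), and the first outside were Napsa and Slc34a3 (0.0505 each), Calml4 and Axin2 (0.0521 each). The other probe sets of Ints6 went the opposite way, with differences of 0.1 to 0.22, so its fall rests on 1 probe set. The count rested on which arrays were fitted. It was 0 without ko clone 1 (802 at an unadjusted p under 0.05), 0 without ko clone 2 (781) and 0 with the 5 iPSC arrays alone (1167), against 885 with the 3 OSK arrays alone and 226 with all 18 arrays. A plainer measure needs no test: 70 genes were at least 2-fold above wt in both ko clones and 97 at least 2-fold below, and 64 of these had passed.

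**Figure D2:**
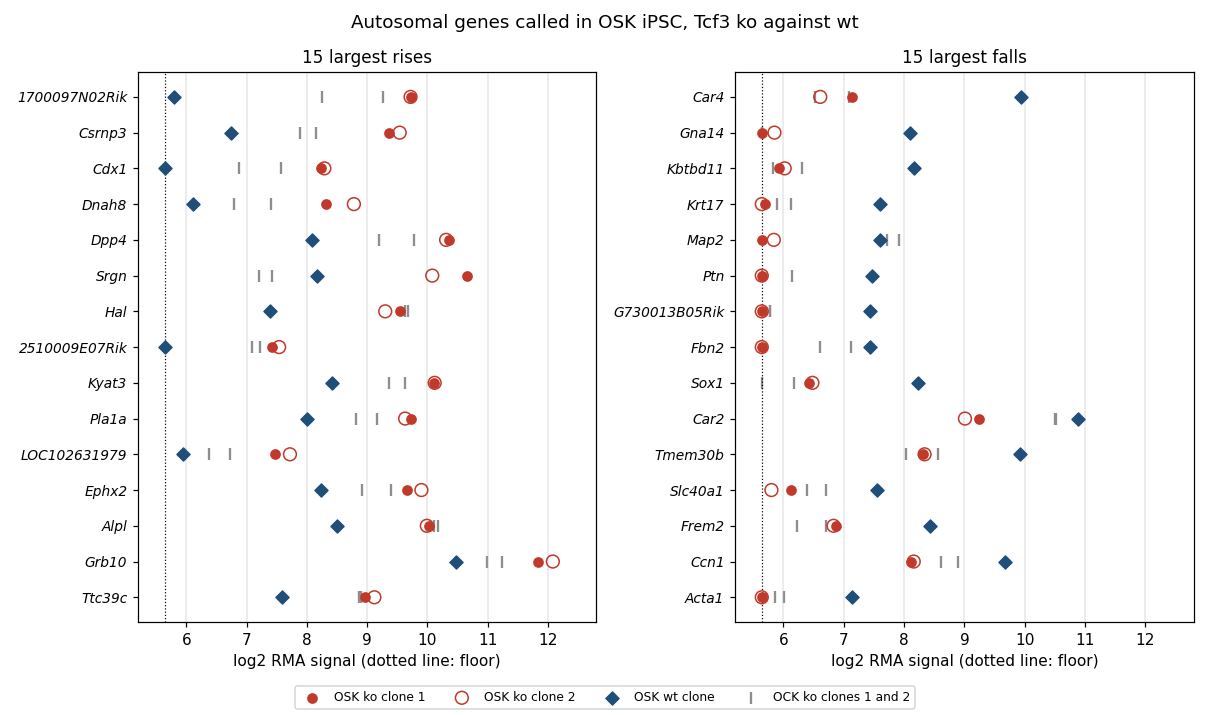
Log2 RMA signal (x axis) of the 15 largest rises (left) and the 15 largest falls (right) among genes that passed in OSK ko against wt, with the floor as a dotted line. Filled and open red circles are OSK ko clones 1 and 2, blue diamonds the OSK wt clone and grey ticks the OCK ko clones; the 2 ko circles nearly coincide for most genes, with the widest gap, 0.58, at Srgn.

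The rises included known targets of Tcf7l1 and of Wnt signalling. A list of 12 genes known as repressed by Tcf3 in embryonic stem cells held 2 that rose, Cdx1 and Klf2, and 0 that fell. Of all tested autosomal genes 0.31% rose. The median difference of the list was 0.73, beside 0.02 over all tested autosomal genes, and 9 of 12 were positive. Over the alternatives to the main fit, given at the end, that median ranged from 0.30 to 0.82. Klf2 lost its call in 6 of 12 alternatives and Cdx1 in 4 of the 11 that tested it. Cdx1, a caudal homeobox gene that Wnt signalling switches on in the embryo, had 8.23 and 8.29 in the ko clones and lay at the floor in wt (5.64). It was at least 6.12-fold higher in ko (2.61 ± 0.26, limma adjusted p = 0.0231). Klf2, a Krüppel-like factor of the naive pluripotency network, had 11.75 and 11.76 in the ko clones and 10.62 in wt. The difference was 1.13 ± 0.15 (adjusted p = 0.0435). Axin2, the classic feedback inhibitor and reporter of Wnt signalling, missed the threshold with 8.24 and 8.35 in the ko clones and 7.16 in wt (1.13 ± 0.16, adjusted p = 0.0521). The same holds for Tbx3, a T-box factor of naive cells, with 9.94 and 10.02 in the ko clones and 8.91 in wt (1.07 ± 0.21, adjusted p = 0.0991).

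Not every gene of that list was higher. Lefty1, an inhibitor of Nodal, had 10.72 and 10.88 in the ko clones and 11.73 in wt, whereas its neighbour in function Lefty2 had 9.35 and 9.51 in the ko clones and 8.60 in wt. Neither passed (adjusted p = 0.485 and 0.419). A list of 15 tested Wnt target genes had Cdx1 as its only rise and no fall. Its median was 0.12, and -0.16 over the members above the floor on every array. Its second largest difference belonged to Tnfrsf19, a receptor gene known as a Wnt target, with 7.73 and 7.87 in the ko clones and the floor in wt (2.16 ± 0.43, adjusted p = 0.0991). The marker Lgr5 was at the floor on all 3 arrays. None of 30 tested Wnt ligands, receptors and antagonists passed, beside 0.613% of all tested autosomal genes, and their median was -0.02. The largest differences there were those of the receptor Fzd2 (-0.82 ± 0.19, adjusted p = 0.135) and the ligand Wnt7b (-0.70 ± 0.11, adjusted p = 0.0643).

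The list of the pluripotency network lay slightly above wt as a whole. Of 24 tested members 1, Klf2, rose and 0 fell, where 0.613% of all tested autosomal genes passed. The list median was 0.13, beside 0.015 over all tested autosomal genes. Positive differences were 19 of the 24, against 6555 of all 12241 tested genes. An unadjusted limma p under 0.05 was found for 6 members, against 12.1% of all tested genes. The core genes lay close to wt: Sox2 differed by 0.10, Nanog by 0.01, Zfp42 (Rex1) by 0.22 and Esrrb, which is on chromosome 12, by -0.24. Tfcp2l1, a factor downstream of LIF and Wnt, had 12.35 and 12.37 in the ko clones and 11.72 in wt (0.65 ± 0.13, adjusted p = 0.103). Nr5a2, a nuclear receptor that can replace Oct4 in reprogramming, had 10.85 and 10.81 in the ko clones and 10.02 in wt (0.80 ± 0.15, adjusted p = 0.0823). Tcl1, a co-activator of Akt on chromosome 12, lay below wt, with 10.52 and 10.50 in the ko clones and 11.23 in wt (-0.72 ± 0.14, adjusted p = 0.0933). None of 12 tested genes of the LIF and Stat3 pathway passed, with a median of 0.20. None of 11 genes of the primed or epiblast state passed either, and they were divided: Pou3f1 (Oct6) had 6.27 and 6.59 in the ko clones and 7.86 in wt, and Zic2 had 6.90 and 7.16 in the ko clones and 5.99 in wt.

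Of 15 tested germline genes 1 rose and 0 fell, where 0.613% of all tested autosomal genes passed. Positive differences were 13 of the 15. The median was 0.31, and 0.06 over the members above the floor on every array. The gene that rose was Stra8, the retinoic acid target needed to enter meiosis, with 11.47 and 11.54 in the ko clones and 10.16 in wt (1.35 ± 0.17, limma adjusted p = 0.0413). The RNA-binding germ cell factor Dazl had 10.45 and 10.39 in the ko clones and 8.95 in wt (1.46 ± 0.32, adjusted p = 0.121). Hormad1, a protein of meiotic chromosome axes, had 8.38 and 8.53 in the ko clones and 7.15 in wt (1.31 ± 0.21, adjusted p = 0.0641). Alpl, tissue-nonspecific alkaline phosphatase and the enzyme behind a common stain for pluripotent cells, had 10.03 and 9.99 in the ko clones and 8.50 in wt. It was 2.85-fold higher in ko (1.51 ± 0.14, adjusted p = 0.0215).

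The largest rise of all was 1700097N02Rik, a RIKEN cDNA gene, with 9.73 and 9.72 in the ko clones and 5.79 in wt. This was 15.3-fold higher in ko (3.93 ± 0.37, limma adjusted p = 0.0215). Csrnp3, a nuclear protein rich in cysteine and serine, had the smallest adjusted p of the comparison, with 9.36 and 9.54 in the ko clones and 6.75 in wt (2.70 ± 0.15, adjusted p = 0.00989). Dnah8, an axonemal dynein heavy chain of the sperm tail, had 8.32 and 8.78 in the ko clones and 6.12 in wt (2.43 ± 0.29, adjusted p = 0.0337). All 3 genes were at 6.75 or below in wt, and both ko clones stood clear of that level. A second probe set of 1700097N02Rik was also higher in ko, by 1.94. The other probe sets of Csrnp3 and Dnah8 lay between 5.64 and 5.68 on all 3 arrays, so these rises rest on 1 probe set each.

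Dpp4, a membrane peptidase also called CD26, had 10.36 and 10.31 in the ko clones and 8.09 in wt, a 4.74-fold difference (2.24 ± 0.24, limma adjusted p = 0.0263). Srgn, the core protein of the proteoglycan serglycin, had 10.66 and 10.08 in the ko clones and 8.17 in wt (2.19 ± 0.24, adjusted p = 0.0264). Its gap between the ko clones, 0.58, was the widest among the genes that passed, and still smaller than the gap to wt. Hal, the histidine-degrading enzyme histidase, had 9.55 and 9.30 in the ko clones and 7.39 in wt, 4.09-fold higher in ko (2.03 ± 0.17, adjusted p = 0.0173). Kyat3, an aminotransferase of the kynurenine pathway, rose by 1.70, the phospholipase Pla1a by 1.67, and the epoxide hydrolase Ephx2 by 1.55. Grb10, an adaptor that dampens insulin and growth factor receptors, rose by 1.47 and is described with the imprinted genes. The remaining rises of the 15 largest were 2510009E07Rik (1.84, from the floor in wt), LOC102631979 (1.65) and Ttc39c (1.45). Their limma adjusted p lay between 0.0203 and 0.0413. The other probe set of 2510009E07Rik was at the floor on all 3 arrays.

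The falls were led by Car4, a membrane-bound carbonic anhydrase. It had 7.13 and 6.61 in the ko clones and 9.94 in wt, 8.41-fold lower in ko (-3.07 ± 0.29, limma adjusted p = 0.0215). A second carbonic anhydrase, the cytosolic Car2, had 9.24 and 9.01 in the ko clones and 10.88 in wt (-1.76 ± 0.13, adjusted p = 0.0164). Gna14, an alpha subunit of Gq-type G proteins, was at the floor in ko clone 1 and at 5.85 in clone 2, against 8.10 in wt, at least 5.1-fold lower in ko (-2.35 ± 0.14, adjusted p = 0.0102). Kbtbd11, a BTB and kelch domain protein, had 5.93 and 6.02 in the ko clones and 8.17 in wt (-2.19 ± 0.21, adjusted p = 0.0215). Of its 3 other probe sets 2 were at the floor on all 3 arrays, and 1 gave 6.02 and 5.87 in the ko clones and the floor in wt, so the fall rests on 1 probe set.

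Of 13 tested members of the neural list 3 fell and 0 rose, where 0.613% of all tested autosomal genes passed. The median of the list was -0.26 (-0.01 over the members above the floor on every array). Sox1, a transcription factor of the early neural plate, had 6.43 and 6.48 in the ko clones and 8.23 in wt (-1.77 ± 0.21, limma adjusted p = 0.0321). Map2, a microtubule-associated protein of dendrites, was at the floor and at 5.84 in the ko clones and at 7.60 in wt, at least 3.62-fold lower in ko (-1.86 ± 0.16, adjusted p = 0.0212). The other probe sets of Sox1 and Map2 were at the floor on all OSK arrays. Fabp7, a fatty acid binding protein of radial glia, was at the floor in both ko clones and at 7.08 in wt, at least 2.71-fold lower in ko (adjusted p = 0.0215). Pax6, an eye and forebrain factor, lay just outside the threshold with 6.09 and 6.09 in the ko clones and 7.09 in wt (-1.0 ± 0.14, adjusted p = 0.0549). Not all members were lower: the neuronal tubulin Tubb3 had 9.07 and 9.03 in the ko clones and 8.57 in wt.

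Keratins, extracellular matrix proteins and genes of the actin cytoskeleton were also among the falls. Krt17 had 5.69 and 5.64 in the ko clones and 7.60 in wt (-1.93 ± 0.14, limma adjusted p = 0.0164). Since ko clone 2 was at the floor, Krt17 was at least 3.81-fold lower in ko. Krt18, a keratin of simple epithelia, had 8.17 and 8.0 in the ko clones and 9.25 in wt (-1.16 ± 0.13, adjusted p = 0.0292). Krt18 was the only one of 19 tested epithelial genes that passed, where 0.613% of all tested autosomal genes passed. The median of the epithelial list was -0.33 with 16 negative differences. Krt8, the partner of Krt18, had 8.67 and 8.48 in the ko clones and 9.71 in wt without passing (adjusted p = 0.448). The adhesion gene Cdh1 differed by -0.08. Ccn1 (Cyr61), a matrix-associated target of serum response factor and Yap signalling, had 8.11 and 8.16 in the ko clones and 9.67 in wt (-1.53 ± 0.14, adjusted p = 0.0215). Frem2, a basement membrane protein, fell by 1.58. The secreted growth factor Ptn and the fibrillin Fbn2 were at the floor in both ko clones and at 7.47 and 7.44 in wt on their brightest probe sets, so they were at least 3.55-fold and 3.47-fold lower in ko there. Another Ptn probe set gave 6.89 and 6.68 in the ko clones and 6.55 in wt, so the probe sets of Ptn disagree. Skeletal alpha-actin, Acta1, was likewise at the floor in both ko clones and at 7.13 in wt, at least 2.81-fold lower in ko (adjusted p = 0.0215).

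Fibroblast markers were mostly lower on the same ko arrays. The list of fibroblast or feeder markers held 20 tested genes. Of these, 1 (Postn) fell and 0 rose, where 0.613% of all tested autosomal genes passed. The list had a median of -0.68 and 18 negative differences. Its summed linear signal was 13278 and 13910 in the ko clones and 17174 in wt, and 18, 18 and 20 of its genes were above the floor. Tagln, a smooth muscle and fibroblast actin-binding protein, had 8.29 and 8.20 in the ko clones and 10.59 in wt, and the collagen gene Col3a1 had 8.45 and 8.43 in the ko clones and 10.40 in wt. Neither passed (adjusted p = 0.202 and 0.382). Postn, a matrix protein of fibroblasts, was at the floor in both ko clones and at 6.88 in wt. Acta2 and Snai2 were at the floor on all 3 arrays. In the 10 OCK cultures Postn lay between 12.72 and 14.07, Ptn between 10.97 and 13.10, Fbn2 between 8.95 and 11.74, and Krt17 between 7.62 and 10.46. Some other genes that fell were not high there. Acta1 lay between 5.64 and 6.41 in the cultures, and Frem2 and Car4 between 5.64 and 8.18, each below its OSK wt value. The part of other cells in these falls was not tested, and in such bulk samples fewer cells of a type and less RNA per cell cannot be told apart.

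The promoters of the actin genes are shown because they carry the binding motif of serum response factor, the CArG box, which drives many cytoskeletal and immediate early genes. Promoter sequence, the 250 bases before the annotated start, came from RefSeq (build GRCm38.p6), and 27 of the 38 genes that rose and 27 of the 37 that fell had an entry. A CArG box, searched on both strands, was in 3 of the 27 that fell (11.1%) and 0 of the 27 that rose, against 128 of 9873 tested genes (1.3%). The 3 are Acta1, the cardiac actin gene Actc1 (at the floor in both ko clones, 6.92 in wt) and Dusp5, a phosphatase of ERK (7.90 and 7.89 in the ko clones, 8.74 in wt). The motif was chosen after the values of these genes had been seen, and a match is a description, not a binding site. Sequences run 5′ to 3′ on the gene's strand, with the CArG box in capitals. Acta1 is from chr8:123894776-123895025 (minus strand), Actc1 from chr2:114052876-114053125 (minus strand) and Dusp5 from chr19:53528895-53529144 (plus strand). The box begins 73 bases before the start in Acta1 and 47 in Actc1, and Dusp5 has 2 boxes side by side, at 82 and 72.
Acta1: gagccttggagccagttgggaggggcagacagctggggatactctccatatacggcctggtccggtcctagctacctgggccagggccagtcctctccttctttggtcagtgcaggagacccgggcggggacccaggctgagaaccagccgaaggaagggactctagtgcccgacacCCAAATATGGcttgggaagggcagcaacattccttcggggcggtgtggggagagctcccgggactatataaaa
Actc1: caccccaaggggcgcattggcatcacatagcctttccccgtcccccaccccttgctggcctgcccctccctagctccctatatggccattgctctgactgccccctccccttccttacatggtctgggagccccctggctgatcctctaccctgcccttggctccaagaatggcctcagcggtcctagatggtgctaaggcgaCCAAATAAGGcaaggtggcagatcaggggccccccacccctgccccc
Dusp5: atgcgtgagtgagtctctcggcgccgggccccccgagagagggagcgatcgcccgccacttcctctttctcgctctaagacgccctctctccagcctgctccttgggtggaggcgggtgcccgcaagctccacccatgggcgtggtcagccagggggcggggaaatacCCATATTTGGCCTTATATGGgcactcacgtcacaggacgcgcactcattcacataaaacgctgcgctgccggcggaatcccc

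The Tcf/Lef motif CTTTGAT, or ATCAAAG on the other strand, was searched in the same windows. It was in 1 of the 27 promoters of genes that rose (3.7%), that of Hal, and in 0 of the 27 of genes that fell, against 281 of 9873 tested genes (2.85%). The share among the rises is near that of all tested genes. The Hal promoter is from chr10:93488518-93488767 (plus strand), and the motif, in capitals, begins 199 bases before the start.
Hal: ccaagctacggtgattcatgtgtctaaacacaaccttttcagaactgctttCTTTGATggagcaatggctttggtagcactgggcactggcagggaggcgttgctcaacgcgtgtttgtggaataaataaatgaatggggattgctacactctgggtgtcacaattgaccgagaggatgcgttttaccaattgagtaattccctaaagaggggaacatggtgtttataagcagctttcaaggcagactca

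Imprinted genes are expressed from only 1 parental copy. They gave 1 rise and 3 falls among 18 tested, where 0.613% of all tested autosomal genes passed. The median of the list was -0.54, with 15 negative differences, and without the chromosome 12 genes it was -0.34. Peg3, a zinc finger gene expressed from the paternal copy, had 10.81 and 10.79 in the ko clones and 12.24 in wt (-1.45 ± 0.15, limma adjusted p = 0.0263). Its 2 further probe sets above the floor gave differences of -1.62 and -1.63. Mest, another paternally expressed gene, had 10.23 and 10.17 in the ko clones and 11.27 in wt (-1.07 ± 0.10, adjusted p = 0.0217). Peg10, a retrotransposon-derived gene needed in the placenta, was at the floor in both ko clones and at 6.68 in wt, at least 2.06-fold lower in ko (adjusted p = 0.0436). Grb10 was the exception, with 11.84 and 12.08 in the ko clones and 10.48 in wt (1.47 ± 0.15, adjusted p = 0.0258). Igf2, the fetal growth factor gene, had 8.99 and 8.88 in the ko clones and 10.64 in wt but did not pass (-1.71 ± 0.54, adjusted p = 0.259). The maternally expressed Meg3 and Rian on chromosome 12 differed by -0.70 and -0.72, and neither passed.

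Signalling genes outside the Wnt pathway mostly did not pass, where 0.613% of all tested autosomal genes passed. Among 15 tested immediate early, heat shock and hypoxia genes 1 fell, Jun, a subunit of AP-1, with 6.51 and 6.51 in the ko clones and 7.89 in wt (-1.38 ± 0.11, limma adjusted p = 0.0164). Its relatives Junb and Fos, the second of them on chromosome 12, differed by -0.80 and -0.41 without passing. None of 17 Nodal and BMP genes passed. Their largest difference was that of Id2, a target of BMP on chromosome 12, with 6.18 and 5.99 in the ko clones and 8.32 in wt (-2.24 ± 0.36, adjusted p = 0.0641). None of 16 FGF and ERK feedback genes passed (median -0.09), where Dusp4 had the largest difference, -0.86 ± 0.21. Other falls among the 15 largest were the iron exporter Slc40a1 (-1.59), the phospholipid flippase subunit Tmem30b on chromosome 12 (-1.60) and the unannotated G730013B05Rik (-1.80, at the floor in both ko clones).

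**Figure D3:**
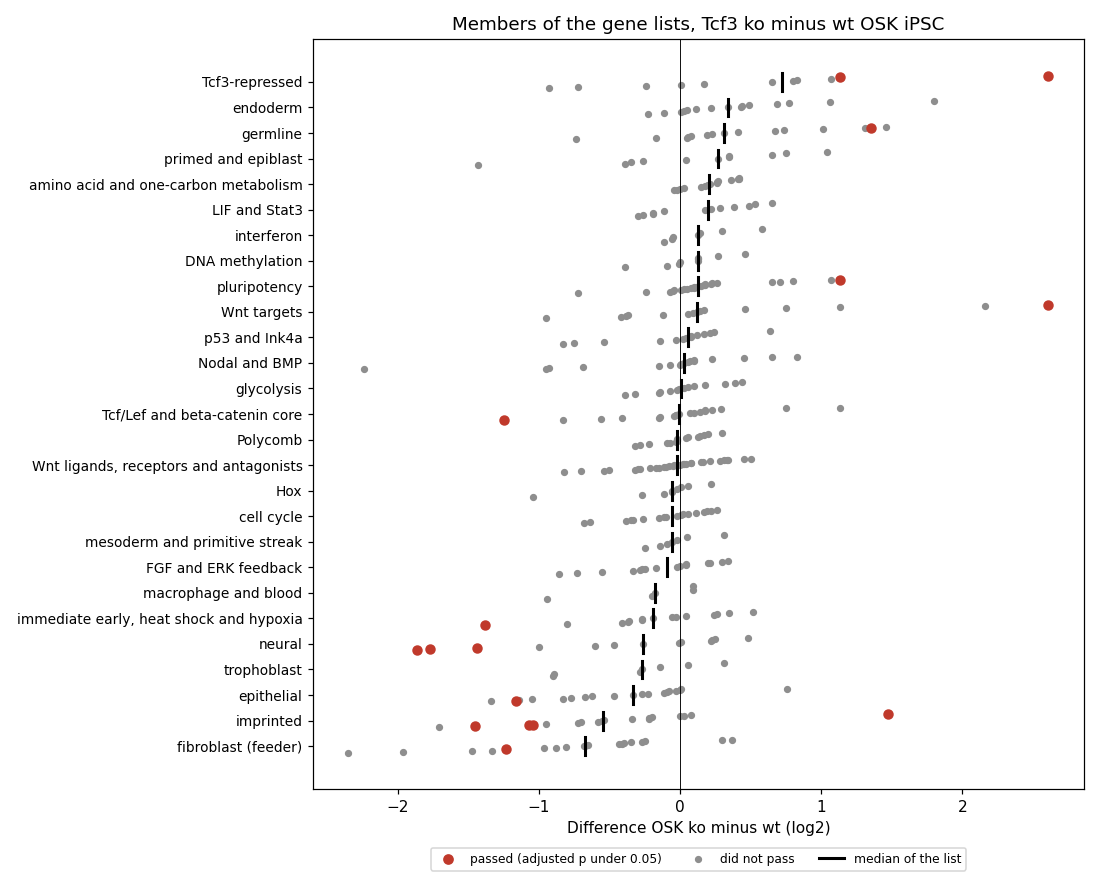
Difference in log2 signal, OSK ko minus wt (x axis), for each tested member (points) of the gene lists (rows), ordered by their medians (black bars); the 2 two-cell-like genes are not drawn. Red points passed and grey points did not; the Tcf3-repressed list lies highest with a median of 0.73, and the imprinted and fibroblast lists lie lowest with -0.54 and -0.68.

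Lineage lists showed no further call. Of all tested autosomal genes 0.613% passed, so most lists of this size would hold no call. A count of 0 thus does not show that a list was unchanged, here or in the lists above. None of 15 tested endoderm genes passed, although 13 differences were positive and the median was 0.34. Cubn, an endocytic receptor of visceral endoderm, was at 7.80 and 7.09 in the ko clones and at the floor in wt (1.80 ± 0.27, limma adjusted p = 0.0558), and Gata4 had 6.64 and 6.20 in the ko clones and 5.65 in wt. For most of this list ko clone 1 lay above clone 2, with medians of 0.50 and 0.26 against wt. None of 7 tested mesoderm genes (median -0.06), 7 trophoblast genes (median -0.27) or 9 Hox genes (median -0.06) passed. The same was found for 16 Polycomb genes (median -0.02), 9 genes of DNA methylation (0.13), 7 interferon genes (0.13), 14 genes of the p53 and Ink4a pathways (0.06) and 5 macrophage genes (-0.18). It was also found for 14 glycolysis genes (0.01), 16 genes of amino acid and one-carbon metabolism (0.21) and 18 cell cycle genes (-0.06). Of 2 tested genes of the two-cell-like state, Usp17la had 8.68 and 7.94 in the ko clones and 6.67 in wt, without passing (adjusted p = 0.295).

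Differences between the ko clones were few. The largest was at Mycn on chromosome 12, a Myc family gene, with 7.0 in ko clone 1 and 8.52 in clone 2, and wt lay between them at 7.78. Gm11544 and the lysyl oxidase Loxl4 followed, with clone 1 above clone 2 by 1.16 and 1.07. Each of the other 7 genes of the 10 most different (Tcstv1, Stac2, Chst15, Sned1, BC080696, Rgcc and Chrna9) differed by 0.79 to 0.92 in size. The median gap between the ko clones was 0.07 among the 75 genes that passed, and also 0.07 over all 12241 tested genes. Passing itself favours a small gap, since the ko pair is part of the spread in the fit.

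The siRNA arrays measured a second loss of Tcf3, in other cells and with their own control. Of 12222 autosomal genes tested there, 13 passed (0.106%), all of them lower after siTcf3, and 1545 (12.6%) had an unadjusted p under 0.05. Tcf7l1 was the 1 gene called in both comparisons: it had 8.80 and 8.77 with siTcf3-A and siTcf3-B and 9.93 with siCtrl (-1.15, limma adjusted p = 0.0495). Of the 75 genes that passed in OSK clones, 16 were at the floor on all 3 siRNA arrays, Cdx1, Csrnp3 and 1700097N02Rik among them, and 59 could be compared. Those 59 had the same sign in 42 cases (71.2%), against 6007 of 11513 (52.2%) of all genes tested in both. Of the OSK falls, 28 of 31 were also negative with siTcf3, the siRNA target Tcf7l1 among them. Of the OSK rises, 14 of 28 were positive. Over all genes tested in both, 5762 of 11513 were negative with siTcf3. Large siRNA differences were mostly falls. Over the 12241 genes tested in OSK clones, 3 were 2-fold or more above siCtrl with siTcf3-A and 63 below. With siTcf3-B these counts were 5 and 78. What part this skew has in the 28 shared falls was not tested.

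Single genes show both cases. Acta1 had 6.89 and 6.73 with siTcf3-A and siTcf3-B and 7.76 with siCtrl (-0.94, adjusted p = 0.0865), and Frem2 had 6.13 and 6.23 with siTcf3 and 7.20 with siCtrl (-1.01, adjusted p = 0.141). Neither passed there. Stra8 had 6.89 and 6.63 with siTcf3 and 6.21 with siCtrl (0.56, adjusted p = 0.278). Dpp4, a rise in the OSK ko clones, had 5.87 and 5.64 with siTcf3 and 7.35 with siCtrl, the opposite direction (-1.59, adjusted p = 0.0926). A direct test of the OSK difference minus the siRNA difference, in the same limma fit, passed for 0 of 12950 autosomal genes, with 1538 (11.9%) at an unadjusted p under 0.05 and a smallest adjusted p of 0.0845, which Dpp4, Gna14 and Csrnp3 had among the genes described here.

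**Figure D4:**
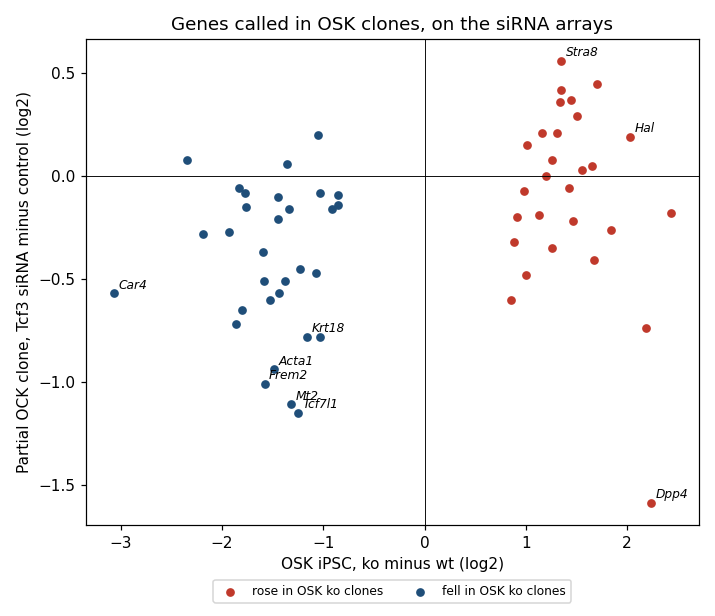
Each point is an autosomal gene that passed in OSK ko against wt and was tested on the siRNA arrays, with the OSK difference (x axis, log2, ko minus wt) against the siRNA difference (y axis, log2, siTcf3 minus siCtrl). Of the OSK falls (blue) 28 of 31 lie below 0 on the y axis, and of the OSK rises (red) 14 of 28 lie above it.

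The OCK ko clones were read only for their levels, since they have no wt clone of their own. For some genes they lay with the OSK ko clones: Stra8 had 11.62 and 11.31, Hal 9.67 and 9.62, Alpl 10.18 and 10.11, and Car4 6.52 and 7.08. For others they lay at the OSK wt level or beyond it. Map2 had 7.71 and 7.91 in the OCK ko clones beside 7.60 in OSK wt, and Srgn had 7.21 and 7.43 beside 8.17. Cdx1 lay between, at 6.88 and 7.57 in the OCK ko clones.

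In the OCK cultures 0 of 12976 autosomal genes passed in ko against wt (limma, with the 5 days as blocks), and 430 (3.31%) had an unadjusted p under 0.05. Of 67 OSK genes tested there, 37 (55.2%) had the same sign as in the clones, against 52.5% of all genes tested in both. Of 32 rises 2, and of 35 falls 2, kept their sign on all 5 days. The same share was not counted over all tested genes, so these counts are not read as a likeness between clones and cultures. The rises were Ror2, a Wnt5a receptor, and Dnah8, and the falls were Tcf7l1, with a mean difference of -0.58 in ko cultures, and Mest, with -0.36. Other genes had the opposite sign on all 5 days. These were Slc40a1, a fall in the clones with a mean difference of 0.46 in ko cultures, and LOC102631979, a rise with -0.18. Ror2 is named here for its signs, after they were seen.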

How the data were processed

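Expression was read from the deposited value table, whose log2 values were made by the authors with RMA, per the submitters' processing notes, and whose lowest value, 5.64, is seen in the values themselves. Probe sets with 1 gene symbol in the platform annotation gave 17903 genes, and each was read from its brightest probe set on average over 18 arrays. Chromosomes came from RefSeq (GRCm38.p6). limma 3.58.1 in R 4.3.3 fitted 8 arrays with a mean per group (2 OSK ko, 1 OSK wt, 2 OCK ko, 2 siTcf3, 1 siCtrl), which leaves 3 residual degrees of freedom and takes the lone arrays to vary like the pairs. The prior spread (SD 0.112, 3.04 degrees of freedom) was estimated without genes that touch the floor in the fit, such genes got at least that variance, and genes at the floor on all arrays compared were not tested. P-values were adjusted over all tested genes by Benjamini-Hochberg, with a threshold of 0.05. The code was tested on simulated data. Named genes were the 15 largest rises and falls that passed, the 10 with the widest gap between ko clones, list members (those that passed, otherwise the largest differences) and the Tcf/Lef genes. The comparison, its tests and the gene lists were chosen with earlier results of these data known. Lists are described by counts and medians only. The alternatives were other variance models and array sets, normalizations and probe set rules, and leaving out each clone or chromosome 12.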

Additional observations from a re-analysis of the deposited data

Results flagged for a closer look

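Genes outside the autosomes lay outside the comparison but showed a signal: 12 of 429 tested passed in OSK ko against wt, all of them on X and all lower in ko. The median difference of the 409 tested X genes was -0.21. Neither the cause nor its part in the autosomal differences was tested.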

How the results depend on the processing

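No paired analysis was possible because the wt clone carries no clone number. The count of 75 autosomal genes depended on the arrays that supply the spread: it was 0 with the 5 iPSC arrays alone (1167 at an unadjusted p under 0.05, smallest adjusted p 0.124), 885 with the 3 OSK arrays alone, which held all 75, and 226 with all 18 arrays, 62 of them shared. For genes that never touch the floor it was 27, all shared, where fewer genes were tested. It was 0 without ko clone 1 and 0 without ko clone 2. Limma's plain prior over all genes gave 111 (33 higher and 78 lower in ko), with 21 shared. Quantile normalization gave 80, median centring 81, averaging the probe sets of a gene 55 (46 shared), adjustment over autosomal genes 72, and leaving out chromosome 12, an alternative chosen after seeing the data, 75 (73 shared). The fall of Tcf7l1 kept its size of -1.25 with the 5 iPSC arrays (adjusted p = 0.147) and ranged from -1.31 to -1.19 without either ko clone (0.154 and 0.18), no longer passing. The test of the OSK minus the siRNA difference gave 0 genes, but 273 with the plain prior and 52 with all 18 arrays, and 0 in the other alternatives. The cause of these changes was not tested. No gene that passed changed sign under any alternative that tested it. Only the normalizations, the averaging of probe sets and leaving out a ko clone could move a gene's difference. The other alternatives, the 5 iPSC arrays among them, leave it unchanged by construction. List medians could also move where the set of tested genes changed. The medians of the Tcf3-repressed list (0.30 to 0.82), the fibroblast list (-0.76 to -0.54) and the imprinted list (-0.55 to -0.22) kept their sign in all 12 alternatives. In all, 17 of the 28 lists kept the sign of their median in every alternative that gave one. The other 11 turned or reached 0 in at least 1, among them the Wnt target list (-0.16 to 0.15). Medians that kept their sign could still shrink: the germline list ranged from 0.06 to 0.38, the neural list from -0.46 to -0.01, the primed list from 0.02 to 0.35, and the DNA methylation list from 0.07 (without chromosome 12) to 0.15.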
